A study of Mus musculus with 7 samples.

Results

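The NADPH oxidase and Rac genes are 8 genes that encode the parts of the superoxide-producing enzyme complex of phagocytes, its relatives and the GTPases that switch it on: Cybb, Nox1 and Nox4 (catalytic subunits), Cyba (their membrane partner), Ncf1 and Ncf4 (cytosolic organisers), and Rac1 and Rac2 (GTPases). Their accessible sites were selected on the position of the peaks: every ATAC-Seq peak counted whose summit lay in the body of 1 of the 8 genes or within 30 kb of it in GENCODE for mm10, and summits of different libraries within 150 bp of each other were taken as 1 site. This gave 125 sites of 205238 in the whole series, of which 68 of 101453 were called in all 7 libraries. ATAC-Seq, an assay that marks open chromatin by transposase insertion, was performed on LSK cells, the lineage-negative, c-Kit- and Sca-1-positive bone marrow compartment that holds the hematopoietic stem cells and early progenitors. There were 4 WTAkita libraries, from adult C57/BL6 offspring of diabetic Ins2Akita/+ dams, and 3 Ctrl libraries, from adult C57/BL6 offspring born after a normal pregnancy. All offspring were wild type, without the Ins2 mutation, were 8 to 12 weeks old and were raised on regular diet, and per the study, Ins2Akita/+ females and their WT littermates alike ate high-fat diet before mating, and Ctrl mice came from a similar breeding scheme. Each library came from 50000 sorted cells. The sources used here do not give the number of mice or litters behind a library, so the p-values speak only of the spread among libraries. The question put to the sites was whether accessibility at the genes of reactive oxygen production differed between WTAkita and Ctrl LSK cells.

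The phagocyte oxidase moves electrons from NADPH in the cytosol across a membrane to oxygen, which yields superoxide. Its catalytic core, gp91phox, is the product of Cybb and is held in the membrane by p22phox, the product of Cyba. The enzyme is silent until the cytosolic factors, among them p47phox from Ncf1 and p40phox from Ncf4, join it together with a GTP-bound Rac protein. Neutrophils and macrophages use it to kill microbes, and loss of its subunits in humans causes chronic granulomatous disease. NOX1 and NOX4 are relatives of gp91phox known mainly from colon epithelium and from kidney and vessel wall, and both use p22phox. In blood stem and progenitor cells, Rac proteins are also known for their part in adhesion, migration and actin assembly.

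Sequences are shown for start sites that span the range of accessibility, for the sites with the largest difference in each direction (upstream of Nox1 and in Zc3h18), and for the Rac2 intron site near the start, where the normalized groups did not overlap. They come from RefSeq (GRCm38.p6, the assembly of mm10), and all 5 RefSeq start windows of these genes were identical to the genome sequence at their coordinates. The Cybb, Cyba and Nox1 windows run from 250 bases before to 50 after the start site on the gene's own strand, and the other windows are the 101 bases around a summit on the plus strand. Capitals mark matches, on either strand, to 5 short motifs. The ETS motif, the core bound by PU.1 and its relatives, was searched as GAGGAA. The motif of the RUNX factors was searched as TGTGGT, and that of the GATA factors as AGATAA. The GC box, bound by Sp1 and its relatives, was searched as CCGCCC, and the last motif was the CCAAT box, by its letters. A match is a run of letters and not a binding site, and neighbouring matches can share letters.
Cybb start, chrX:9469275-9469574, minus strand: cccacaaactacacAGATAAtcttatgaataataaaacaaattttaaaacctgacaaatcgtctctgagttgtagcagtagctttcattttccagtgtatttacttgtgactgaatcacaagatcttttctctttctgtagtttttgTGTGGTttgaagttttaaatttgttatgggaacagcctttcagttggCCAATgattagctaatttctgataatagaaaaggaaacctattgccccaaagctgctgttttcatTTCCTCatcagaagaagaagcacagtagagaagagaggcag
Cyba start, chr8:122432891-122433190, minus strand: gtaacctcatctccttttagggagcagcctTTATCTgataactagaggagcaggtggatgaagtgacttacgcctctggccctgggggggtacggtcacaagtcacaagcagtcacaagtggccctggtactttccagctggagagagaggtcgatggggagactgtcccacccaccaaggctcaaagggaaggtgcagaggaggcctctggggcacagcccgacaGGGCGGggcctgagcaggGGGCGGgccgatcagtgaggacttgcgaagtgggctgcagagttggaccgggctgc
Nox1 start, chrX:134111805-134112104, minus strand: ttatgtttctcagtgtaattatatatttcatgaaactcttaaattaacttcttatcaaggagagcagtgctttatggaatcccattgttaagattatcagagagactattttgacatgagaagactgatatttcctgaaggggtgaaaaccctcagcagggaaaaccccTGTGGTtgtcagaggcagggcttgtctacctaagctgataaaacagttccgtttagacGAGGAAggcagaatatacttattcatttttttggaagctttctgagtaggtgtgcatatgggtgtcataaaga
Rac1 start site summit, chr5:143528023-143528123: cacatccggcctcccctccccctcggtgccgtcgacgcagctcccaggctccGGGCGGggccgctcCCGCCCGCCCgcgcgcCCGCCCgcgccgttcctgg
Rac2 start site summit, chr15:78572698-78572798: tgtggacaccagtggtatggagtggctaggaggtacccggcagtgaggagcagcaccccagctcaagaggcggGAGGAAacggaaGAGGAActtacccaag
Rac2 intron site near the start, chr15:78571714-78571814: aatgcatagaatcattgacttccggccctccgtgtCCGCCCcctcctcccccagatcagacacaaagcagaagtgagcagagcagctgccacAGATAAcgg
Zc3h18 site near Cyba, chr8:122414622-122414722: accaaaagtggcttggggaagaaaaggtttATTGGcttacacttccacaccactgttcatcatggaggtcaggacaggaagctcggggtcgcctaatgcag
Nox1 upstream site, chrX:134140121-134140221: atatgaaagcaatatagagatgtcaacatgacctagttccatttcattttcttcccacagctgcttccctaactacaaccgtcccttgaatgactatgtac
The Cybb window was poor in G and C (35.3%, with 1 CpG in 300 bases) and held the ETS, RUNX and GATA motifs and the CCAAT box once each. The Cyba window was 60.7% G and C with 9 CpG, and the Nox4 window was 68.3% G and C with 24, against a median of 52.7% and 7 CpG over all 32851 RefSeq start windows. The Rac1 summit window was 83.2% G and C and held 4 GC boxes, while the Rac2 summit window was 59.4% G and C and held the ETS motif 2 times and no GC box. Of all RefSeq start windows, 28.3% held the ETS motif, 16.8% the RUNX motif, 11.2% the GATA motif, 35.7% the GC box and 37.4% the CCAAT box. Among the 68 summit windows, 12 (17.6%) held the ETS motif, 8 (11.8%) the RUNX motif, 1 (1.47%) the GATA motif, 5 (7.35%) the GC box and 8 (11.8%) the CCAAT box. Over all 101453 shared summits, 18.6%, 13.6%, 3.73%, 9.07% and 11.5% held them, in that order. The sites near the oxidase genes were close to the whole series for 4 of these motifs. The GATA share rests on 1 window, that of the Rac2 intron site, too few to set apart from the series.

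All 8 genes had accessible sites in both groups, in very different numbers. Rac2 had 26 sites, 18 of them called in all 7 libraries, and Nox4 had 4, of which 2 were. Per 100 kb of gene and flanks, sites shared by all libraries numbered 24.5 at Rac2, 20.1 at Ncf1, 13.2 at Cyba, 13.03 at Rac1, 7.71 at Ncf4, 2.67 at Cybb, 2.56 at Nox1 and 0.941 at Nox4. Of the 125 sites, 24 (19.2%) were called in a single library and 33 in 2 to 6, against 17.6% called in a single library over the whole series. The 24 sites of a single library had a median fold enrichment of 2.87, and the 68 shared ones 9.25. No site was called in every library of WTAkita and in none of Ctrl, or the other way round. The number of peaks near the 8 genes was 84, 93, 87 and 94 in the WTAkita libraries, against 91, 91 and 90 in the Ctrl libraries, so the Ctrl values lay within the WTAkita range. The windows also hold other genes, and 14 of the 125 sites were within 1000 bp of the start site of a gene other than these 8, such as Mvd and Snai3 near Cyba, C1qtnf6, Sstr3 and Cyth4 near Rac2, Fam220a near Rac1, and Cstf2 and Xkrx near Nox1. A further 26 sites lay in the body of another gene, such as Zc3h18 near Cyba, Gtf2ird2 near Ncf1 and Daglb near Rac1.

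**Figure D1:**
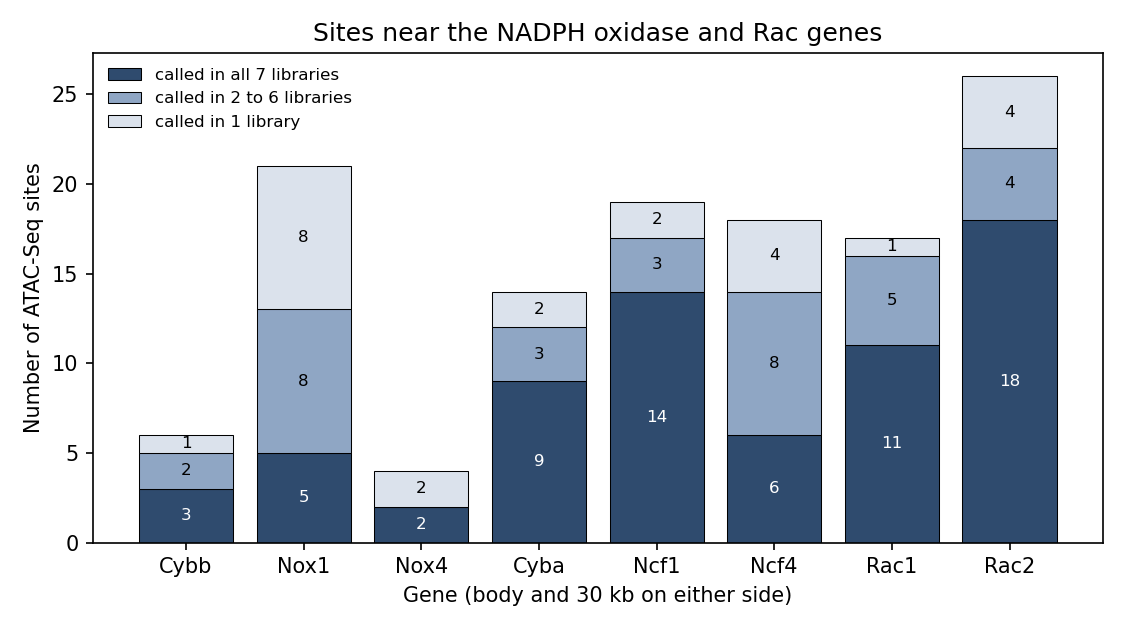
Number of ATAC-Seq sites in each gene and 30 kb on either side, stacked by how many of the 7 libraries called them. Rac2 has the most sites, 26 with 18 in all libraries, and Nox4 the fewest, 4 with 2 in all libraries.

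The value of a site is its fold enrichment, the pileup of tags at the summit over that library's own local background. It is not scaled between libraries, whose medians ran from 5.25 to 6.59 in WTAkita and from 5.79 to 6.48 in Ctrl, and WTAkita replicates 1 and 2 and Ctrl replicate 1 had the 3 lowest. Differences between the groups are therefore given as WTAkita minus Ctrl on a log2 scale after quantile normalization over all shared sites, with the standard error of limma. A site can thus have a lower mean fold enrichment and a difference above 0. Because a library is a bulk sample, fewer cells with an open site and less opening per cell cannot be told apart. As a check of the cell label, the start sites of the LSK markers Kit, Ly6a, Cd34, Flt3, Meis1, Mecom and Gata2 were called in all 7 libraries. Of 9 neutrophil and granule genes, Ltf, Mmp8, Mmp9 and Itgam were also called at the start in all libraries, S100a8 in 2, Ly6g in 1, and S100a9, Camp and Ngp in none. Mmp8, a neutrophil collagenase, had fold enrichments of 4.84, 4.41, 4.61 and 5.54 in the 4 WTAkita libraries, against 6.05, 6.66 and 6.89 in the 3 Ctrl libraries, a difference of -0.36 (unadjusted p 0.0436, adjusted p 1.00 from limma), and the other 3 differed by -0.02 to 0.09. Of 6 monocyte and macrophage genes, 4 were called in all libraries and Ccr2 and Ly86 in none. Of 6 erythroid genes, 4 were called in all, 1 in part and Klf1 in none. The summed fold enrichment over the neutrophil list was 36.02 to 47.6 in WTAkita and 36.1 to 45.4 in Ctrl. For the monocyte list it was 38.3 to 48.4 in WTAkita and 44.7 to 48.7 in Ctrl, and the part of either list in the results was not tested.

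Cybb, the catalytic subunit of the phagocyte enzyme, was the 1 gene of the 8 without a peak at its start site. In none of the 7 libraries did a peak cover the annotated start or have its summit within 1000 bp of it. The nearest open site lay 1604 bp upstream, with its summit at 9470928 on chromosome X. The fold enrichment here was 11.9, 11.2, 12.7 and 17.2 in the 4 WTAkita libraries, against 13.2, 13.9 and 17.6 in the 3 Ctrl libraries. It was open in every library, WTAkita replicate 4 and Ctrl replicate 3 were highest, and the groups overlapped. The difference was -0.10 (standard error 0.12). A second site, 2141 bp inside the gene, was named after its values were seen. The libraries gave fold enrichments of 6.25, 8.74, 8.24 and 6.31 in the 4 WTAkita libraries, against 5.17, 11.6 and 9.73 in the 3 Ctrl libraries. By raw fold enrichment Ctrl replicate 1 was the lowest of all and the other Ctrl libraries were the highest. After normalization Ctrl replicate 1 (2.47) was still lowest, but WTAkita replicate 2 (3.25) lay above Ctrl replicate 3 (3.20). The difference was -0.12 (standard error 0.22). The third shared site lay 16792 bp inside the gene. Fold enrichment reached 7.87, 8.74, 11.8 and 10.7 in the 4 WTAkita libraries, against 8.28, 12.97 and 14.4 in the 3 Ctrl libraries. The difference was -0.19 (standard error 0.14). All 3 differences were below 0 and in each the groups overlapped. With 1 library left out, the difference at the site 16792 bp inside the gene ran from -0.36 to -0.05. At the site 1604 bp upstream it ran from -0.20 to -0.001. At the site 2141 bp inside the gene the difference turned to 0.06 without Ctrl replicate 2 and to 0.01 without WTAkita replicate 4. It was also 0.01 with the replicate number as a block. With WTAkita replicates 1 and 2 and Ctrl replicate 1 all removed, it was -0.60.

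Nox1, the catalytic subunit best known from colon, had a weak site at its start, 6 bp from the RefSeq start. Here the values were 4.62, 5.32, 6.21 and 6.77 in the 4 WTAkita libraries, against 3.93, 5.78 and 5.43 in the 3 Ctrl libraries (fold enrichment). After normalization the 4 WTAkita libraries were at 2.47, 2.51, 2.51 and 2.60, against 2.08, 2.40 and 2.37 in Ctrl, so the groups did not overlap, while the raw fold enrichments did. The difference was 0.24 (standard error 0.16). The strongest site of the gene away from its start lay 4678 bp upstream. Its fold enrichment was 17.4, 19.6, 20.8 and 20.4 in the 4 WTAkita libraries, against 20.7, 19.97 and 23.9 in the 3 Ctrl libraries. It differed by -0.07 (standard error 0.09), with Ctrl replicate 3 highest. GENCODE draws the Nox1 gene past this start with a long upstream transcript that spans Xkrx, so sites up to 63004 bp upstream count as inside it, and most of them were called in part of the libraries.

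The largest difference of all 68 sites was at a weak site within that upstream transcript, 28317 bp before the Nox1 start, with its summit at 134140171 on chromosome X. The fold enrichment here was 3.03, 3.80, 3.77 and 3.48 in the 4 WTAkita libraries, against 6.62, 4.45 and 6.22 in the 3 Ctrl libraries. Every WTAkita library was below every Ctrl library. The pileup behind these values was 14, 19, 15 and 15 tags in WTAkita, against 31, 22 and 24 in Ctrl, and the site stood at the 15.3 percentile of all shared sites by enrichment. The difference was -0.65 (standard error 0.19), with an unadjusted p of 0.00417 and an adjusted p of 1.00 from limma. It ran from -0.87 to -0.48 with 1 library left out. Cybb and Nox1 are on the X chromosome, and the sources used here do not give the sex of the mice. The median of 2206 shared X sites on the normalized log2 scale was 3.03, 3.04, 3.08 and 3.12 in the WTAkita libraries and 3.04, 3.10 and 3.08 in the Ctrl libraries, and Y peaks numbered 67, 115, 112 and 79 in WTAkita and 81, 123 and 106 in Ctrl. Their part in the X-linked differences was not tested.

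**Figure D2:**
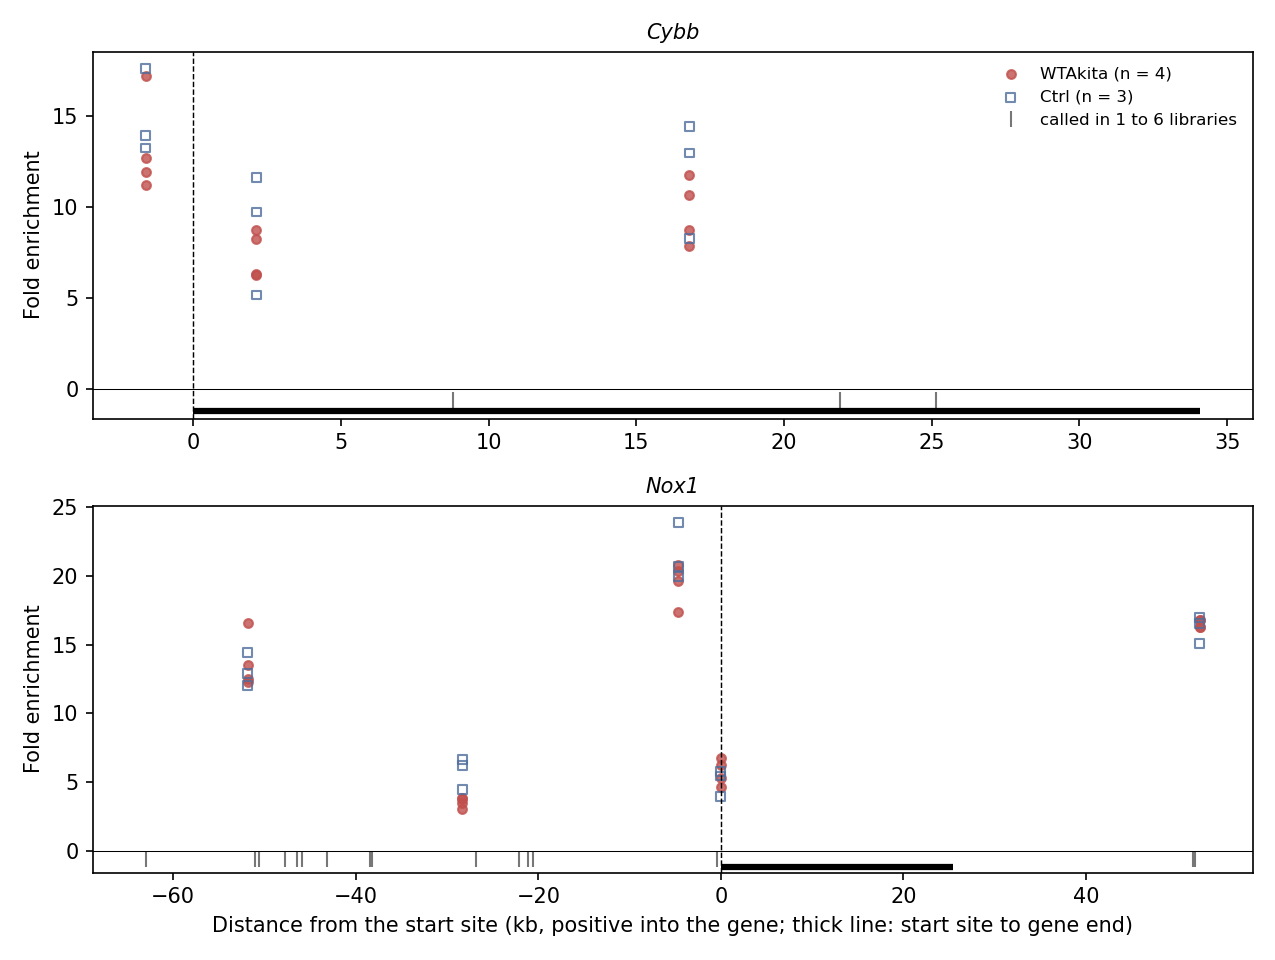
Fold enrichment of the sites called in all 7 libraries against the distance in kb from the start site of Cybb and Nox1, with filled circles for the 4 WTAkita libraries, open squares for the 3 Ctrl libraries and ticks for sites called in fewer libraries. Cybb has no site at distance 0, and at the Nox1 site 28317 bp upstream the 4 circles (3.03 to 3.80) lie below the 3 squares (4.45 to 6.62).

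Nox4, a catalytic subunit known mainly from kidney and vessel wall, had the fewest sites for its length. Its GC-rich start site was open in all libraries, with the summit 73 bp before the start. The libraries gave fold enrichments of 6.25, 6.84, 8.01 and 7.19 in the 4 WTAkita libraries, against 8.69, 6.58 and 10.5 in the 3 Ctrl libraries. Ctrl replicates 1 and 3 were highest and Ctrl replicate 2 was among the lowest, and the difference was -0.19 (standard error 0.18). Without Ctrl replicate 2 it was -0.42, without Ctrl replicate 1 it was -0.10 and without Ctrl replicate 3 it was -0.06. The other shared site lay 12832 bp beyond the gene's end. Fold enrichment reached 7.87, 8.36, 12.01 and 11.3 in the 4 WTAkita libraries, against 7.45, 8.13 and 11.7 in the 3 Ctrl libraries. It differed by 0.20 (standard error 0.15), with the groups overlapping, and by 0.37 without Ctrl replicate 3 and 0.08 without Ctrl replicate 2. The 152615 bp between the annotated ends of the gene held only 1 more site, in a single library.

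Cyba, the membrane partner that the catalytic subunits need, had a site centred on its start. Here the values were 7.72, 7.92, 9.57 and 9.86 in the 4 WTAkita libraries, against 10.1, 8.79 and 11.2 in the 3 Ctrl libraries (fold enrichment). WTAkita replicates 3 and 4 were above Ctrl replicate 2, so the groups overlapped, and the difference was -0.12 (standard error 0.14). The strongest site in its window was not its own but the start site of Mvd, an enzyme of the mevalonate pathway, 10520 bp upstream of Cyba. Its fold enrichment was 18.2, 19.8, 22.8 and 22.8 in the 4 WTAkita libraries, against 21.2, 22.8 and 22.99 in the 3 Ctrl libraries. It was nearly level between the groups, with a difference of -0.03 (standard error 0.07). The largest difference was in the body of the neighbouring gene Zc3h18, 18236 bp from the Cyba start, at 122414672 on chromosome 8. The fold enrichment here was 4.14, 3.69, 4.71 and 3.95 in the 4 WTAkita libraries, against 3.20, 3.39 and 3.02 in the 3 Ctrl libraries. All 4 WTAkita libraries were above all 3 Ctrl libraries. The difference was 0.40 (standard error 0.16), with an unadjusted p of 0.0248 and an adjusted p of 1.00 from limma. Of the 9 shared sites around Cyba, 7 were below 0 and 2 above, where 52.1% of all shared sites were above 0.

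Ncf1 encodes p47phox, the organiser whose phosphorylation starts assembly of the complex. Its window was densely open, with 14 shared sites, many of them weak, and a median fold enrichment of 4.80 against 9.25 for all 68. The start site was at 134229579 on chromosome 5. The libraries gave fold enrichments of 7.29, 7.71, 9.31 and 9.27 in the 4 WTAkita libraries, against 8.14, 8.02 and 9.74 in the 3 Ctrl libraries. The groups overlapped and the difference was 0.03 (standard error 0.13), a sign that turned in 4 of 20 alternatives. The strongest site lay downstream of the gene in the body of Gtf2ird2. Fold enrichment reached 17.9, 18.1, 20.5 and 20.1 in the 4 WTAkita libraries, against 17.7, 19.2 and 18.8 in the 3 Ctrl libraries. It differed by 0.11 (standard error 0.08). The largest difference was at a faint site 1928 bp upstream. Here the values were 3.04, 2.46, 2.85 and 2.92 in the 4 WTAkita libraries, against 2.89, 2.37 and 1.68 in the 3 Ctrl libraries (fold enrichment). Ctrl replicate 1 lay among the WTAkita values and Ctrl replicate 3 was lowest, and the difference of 0.35 (standard error 0.19) fell to 0.13 without Ctrl replicate 3. At 2 weak sites, 3683 bp upstream and 28159 bp upstream in Gtf2i, the normalized WTAkita values were all below those of Ctrl, with differences of -0.14 and -0.15; both were named after their values were seen. Around Ncf1, 10 of the 14 sites were above 0 and 4 below, where 52.1% of all shared sites were above 0.

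Ncf4 encodes p40phox, which binds phosphoinositides on the membrane of phagosomes. Its start site, with the summit 39 bp inside the gene, was open at a like level in every library. Its fold enrichment was 10.6, 11.6, 12.999 and 12.99 in the 4 WTAkita libraries, against 12.05, 12.2 and 11.97 in the 3 Ctrl libraries. On this raw scale the WTAkita values lay on either side of the narrow Ctrl range. After normalization WTAkita ran from 3.54 to 3.69 and Ctrl from 3.46 to 3.68, and the difference was 0.07 (standard error 0.11). An intron site 3736 bp inside the gene had the largest difference. The fold enrichment here was 8.45, 9.19, 10.7 and 11.2 in the 4 WTAkita libraries, against 9.63, 10.2 and 8.64 in the 3 Ctrl libraries. It came to 0.13 (standard error 0.12) with overlapping groups. The strongest site was intergenic, 23204 bp from the start towards Csf2rb2, a receptor gene of the myeloid cytokines. The libraries gave fold enrichments of 13.7, 17.1, 21.3 and 24.4 in the 4 WTAkita libraries, against 18.3, 23.4 and 18.97 in the 3 Ctrl libraries. Fold enrichment was lowest in WTAkita replicate 1 and highest in WTAkita replicate 4, and the difference was -0.03 (standard error 0.10). Of 18 sites near Ncf4 only 6 were shared, and 8 were called in 2 to 6 libraries.

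Rac1, the GTPase found in most cell types, had a strong, GC-rich start site. Fold enrichment reached 12.2, 13.3, 13.9 and 14.3 in the 4 WTAkita libraries, against 11.3, 14.8 and 12.7 in the 3 Ctrl libraries. On this raw scale Ctrl held both the highest and the lowest value. After normalization WTAkita replicates 1 and 2 were highest (3.88 and 3.85), and Ctrl replicate 2 (3.75) lay above WTAkita replicates 3 and 4 (3.68 each). The difference was 0.13 (standard error 0.10). The most open site of its window was in an intron, 18163 bp from the start. Here the values were 18.2, 19.5, 23.1 and 23.4 in the 4 WTAkita libraries, against 19.4, 20.7 and 22.5 in the 3 Ctrl libraries (fold enrichment). The difference there was 0.08 (standard error 0.07). A weaker intron site 9604 bp from the start had the largest difference. Its fold enrichment was 6.71, 7.59, 8.03 and 8.35 in the 4 WTAkita libraries, against 9.54, 11.04 and 8.28 in the 3 Ctrl libraries. On this raw scale WTAkita replicate 4 was just above Ctrl replicate 3 and the other WTAkita libraries were below all of Ctrl. After normalization WTAkita replicates 1 and 2 (3.04 each) were above Ctrl replicate 3 (2.98). WTAkita replicates 3 and 4 (2.88 and 2.89) were then below all of Ctrl. The difference was -0.26 (standard error 0.14). At a site 2817 bp upstream the normalized WTAkita values were all above those of Ctrl, with a difference of 0.17 (named after its values were seen). In all, 8 of the 11 shared sites near Rac1 were above 0, where 52.1% of all shared sites were.

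**Figure D3:**
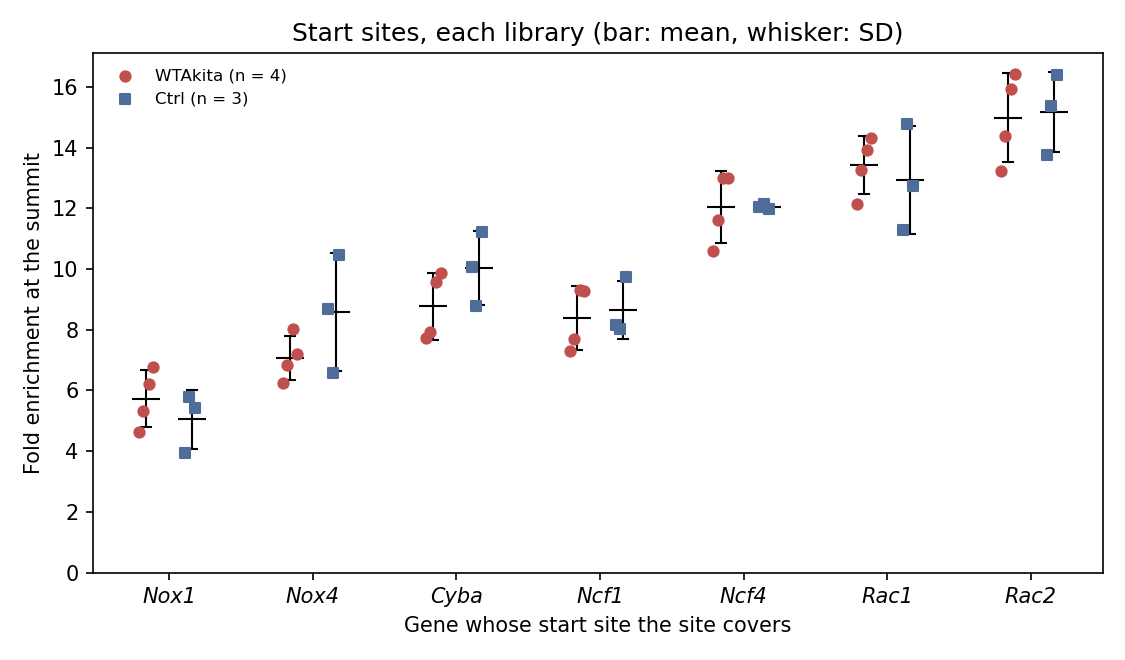
Fold enrichment at the start site of each gene that has one, with points for the 4 WTAkita libraries (left of each pair) and the 3 Ctrl libraries, a bar for the mean and a whisker for the SD. Levels are lowest at Nox1 and highest at Rac2, and within each gene the raw values of the groups overlap.

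Rac2 is the Rac of blood cells and the one that serves the oxidase in neutrophils. Its start site was the most open of the 7 start sites with a value. The fold enrichment here was 13.2, 14.4, 15.9 and 16.4 in the 4 WTAkita libraries, against 13.8, 15.4 and 16.4 in the 3 Ctrl libraries. The groups had nearly the same range, and the difference was 0.05 (standard error 0.09), which turned to -0.02 without normalization between libraries. Among 13587 start sites of protein-coding genes called in all libraries, it stood at the 51.6 percentile of enrichment, against 40.6 for Rac1, 34 for Ncf4, 20.03 for Cyba, 16.6 for Ncf1, 13.4 for Nox4 and 6.54 for Nox1. On the normalized log2 scale each neighbour in this order overlapped the next in its range over the 7 libraries, except that Ncf4 (3.46 to 3.69) lay above Cyba (2.99 to 3.43). Compared within each library, Rac2 lay above Rac1, Cyba above Ncf1 and Nox4 above Nox1 in all 7. Rac1 and Ncf4, and Ncf1 and Nox4, changed order between libraries. A site in the intron 1019 bp after the start was less open. The libraries gave fold enrichments of 8.57, 8.60, 9.51 and 10.4 in the 4 WTAkita libraries, against 7.81, 8.81 and 7.75 in the 3 Ctrl libraries. On the normalized scale the WTAkita libraries were at 3.399, 3.226, 3.122 and 3.214, against 3.070, 2.997 and 2.883 in Ctrl, without overlap, and the difference was 0.26 (standard error 0.13), with an unadjusted p of 0.0650 from limma. With consensus regions in place of matched summits the difference was 0.78, and the cause was not tested.

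The strongest site inside Rac2 was in an intron 8661 bp from the start, at 78564122 on chromosome 15. Fold enrichment reached 15.3, 15.8, 18.97 and 20.1 in the 4 WTAkita libraries, against 15.8, 18.03 and 17.7 in the 3 Ctrl libraries. After normalization the WTAkita libraries were at 4.196, 4.098, 4.138 and 4.187, against 4.069, 4.048 and 4.062 in Ctrl. These do not overlap, and the difference was 0.10 (standard error 0.08). Beyond the end of the gene, 2 weak sites at 14427 and 14935 bp from the start differed by 0.30 and 0.17. The nearer of them had fold enrichments of 3.82, 4.38, 5.54 and 4.12 in the 4 WTAkita libraries, against 3.15, 3.94 and 4.05 in the 3 Ctrl libraries. On this raw scale WTAkita replicate 1 was below 2 of the Ctrl libraries. After normalization it was above all of Ctrl (2.16), and WTAkita replicate 4 (1.91) was below Ctrl replicate 3 (1.99). With consensus regions the difference at this site was 0.48. Farther on lay sites at 24329 bp (difference -0.05), 25220 bp (0.09), 28010 bp at the start of Sstr3 (-0.02) and 33210 bp in Sstr3 (-0.11), a somatostatin receptor gene. The site in Sstr3 at 33210 bp had fold enrichments of 7.25, 10.5, 17.3 and 10.7 in the 4 WTAkita libraries, against 12.6, 13.2 and 11.6 in the 3 Ctrl libraries. WTAkita held both the lowest and the highest value there. The most distant site called in all 7 libraries, 40542 bp from the start, was also the most open of the 18 by its mean. Here the values were 16.4, 15.5, 18.6 and 18.1 in the 4 WTAkita libraries, against 16.6, 18.8 and 19.5 in the 3 Ctrl libraries (fold enrichment). It was level between the groups, with a difference of -0.03 (standard error 0.09).

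Upstream of Rac2, strong intergenic sites at 8814 and 16297 bp had differences of 0.00 and 0.01, whose sign turned in 7 and 5 of 20 alternatives and which were -0.12 and -0.15 with the summit pileup. The site at 8814 bp had fold enrichments of 9.89, 12.05, 13.4 and 14.1 in the 4 WTAkita libraries, against 12.02, 13.3 and 13.4 in the 3 Ctrl libraries. The site at 16297 bp was at 9.92, 11.4, 13.2 and 12.98 in the 4 WTAkita libraries, against 11.5, 13.2 and 12.4 in the 3 Ctrl libraries. At both, WTAkita replicate 1 was lowest on this raw scale and the other values ran together. After normalization it was not lowest at either. Ctrl replicate 2 was lowest at 8814 bp (3.596, against 3.603 in WTAkita replicate 1). WTAkita replicate 4 was lowest at 16297 bp (3.535, against 3.606 in WTAkita replicate 1). Between and beyond them, sites at 14663, 19034 and 22080 bp differed by 0.13, -0.09 and 0.16, the last being the faintest shared site of the window with fold enrichments of 1.35 to 2.29. The 3 sites at 24207, 25191 and 26430 bp belong to Cyth4, an exchange factor gene of the Arf family, and differed by 0.06, -0.01 and 0.04. In all, 12 of the 18 shared sites around Rac2 were above 0 and 6 below, with a median difference of 0.05 and a range from -0.11 to 0.30. Over all shared sites, 52.1% were above 0. The 5 start sites whose log2 profile over the 7 libraries was most like that of the Rac2 start were those of Xdh (r = 0.987), Nek8 (0.986), Etv3 (0.980), Galc (0.978) and Khdc4 (0.974), as a description over 7 libraries picked from 13587 start sites.

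**Figure D4:**
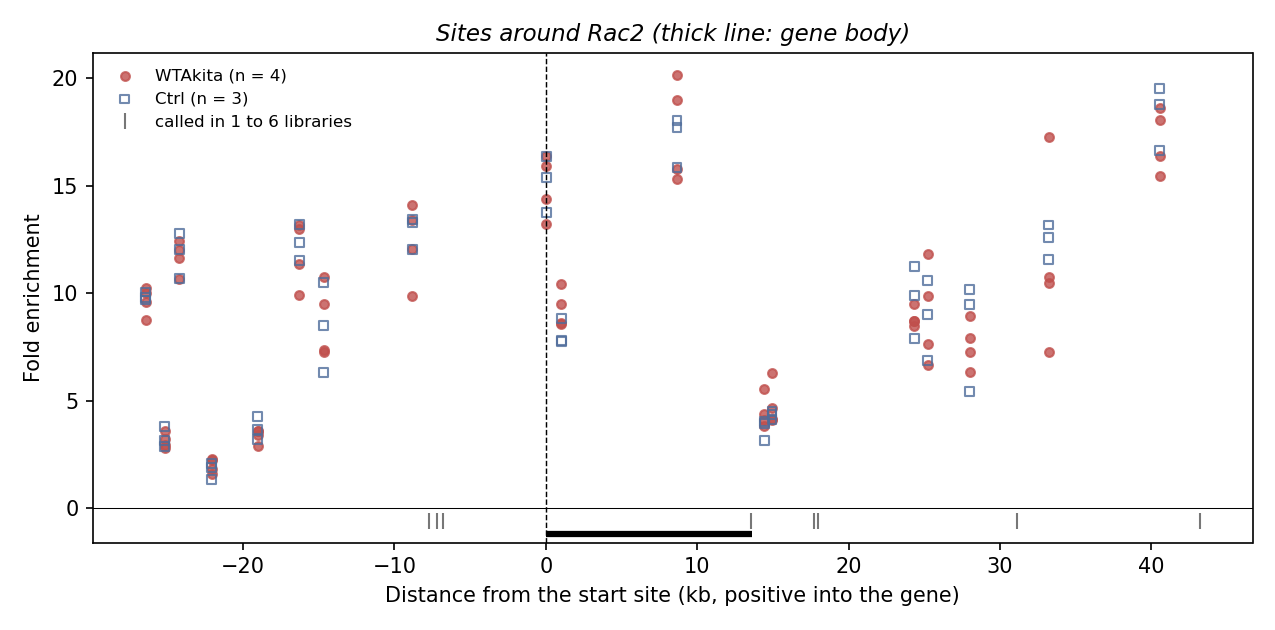
Fold enrichment of the 18 Rac2 sites called in all 7 libraries against the distance in kb from the Rac2 start site, with filled circles for the 4 WTAkita libraries, open squares for the 3 Ctrl libraries, ticks for sites called in fewer libraries and a thick line for the gene body. Circles and squares overlap at all 18 sites on this raw scale.

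Over all 68 shared sites, none passed an adjusted p under 0.05 from limma (smallest adjusted p 1.00), as was so for 0.0% of the 101453 sites tested. At an unadjusted p under 0.05, 1 was higher in WTAkita (Zc3h18 near Cyba), where 1.74% of all sites were, and 1 was lower (upstream of Nox1), where 2.09% were. These shares, 1.47% each, rest on 1 site each and were close to those of the whole series. By sign, 38 of the 68 were above 0 (55.9%), against 52.1% of all sites, and the median difference was 0.04, against 0.01. Sites above and below 0 numbered 2 and 4 near Ncf4, 3 and 2 near Nox1, and 1 and 1 near Nox4. The sign counts of single genes were not tested. The normalized groups did not overlap with WTAkita higher at 5 sites (7.35%, against 2.45% of all sites): Cyba and Nox1 with 1 each, Rac1 with 1 and Rac2 with 2. They did not overlap with WTAkita lower at 3 sites (4.41%, against 2.23%), 2 near Ncf1 and 1 near Nox1. These 8 sites were counted, not tested, several share a locus, and the counts became 0 and 2 with the summit pileup in place of fold enrichment and 1 and 1 without normalization. The difference was larger than the pooled SD within groups at 22 of the 68 sites (32.4%), against 21.7% of all sites.

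**Figure D5:**
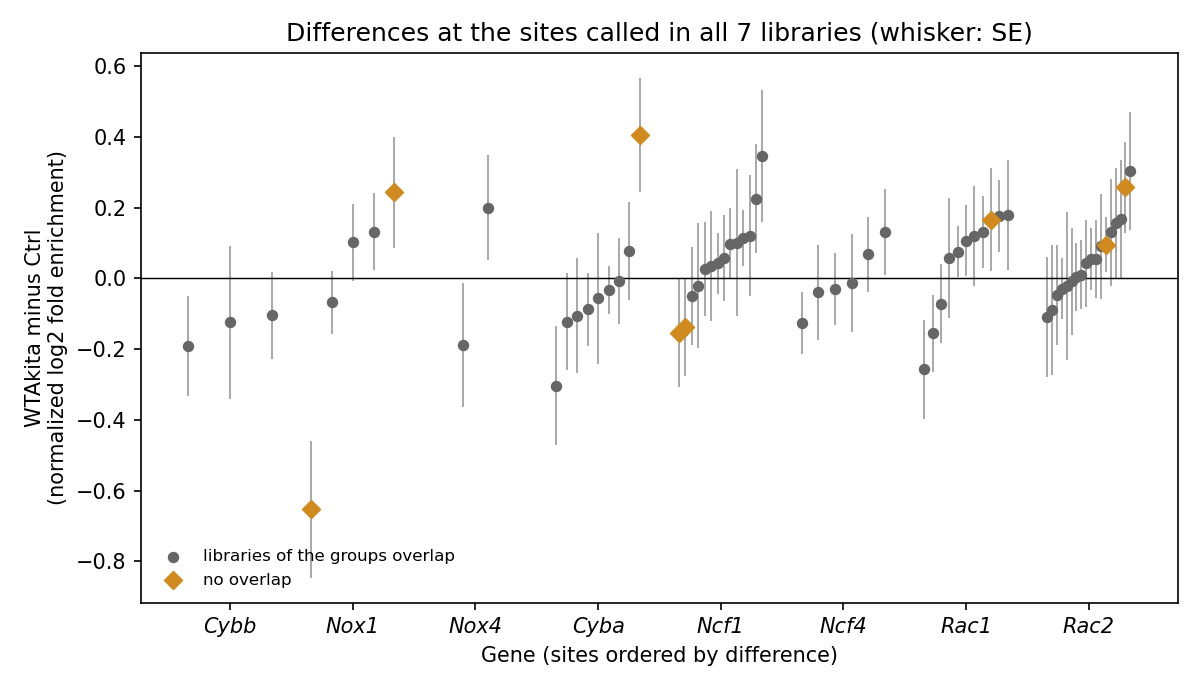
Difference of WTAkita minus Ctrl in normalized log2 fold enrichment at each of the 68 sites called in all 7 libraries, by gene, with the standard error as whisker and diamonds where the libraries of the groups do not overlap. The sites lie on either side of 0 in 7 of the 8 genes, all 3 Cybb sites lie below it, and the site upstream of Nox1 lies apart at -0.65.

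The rest of the pathway was read from a list of 38 other genes: further oxidases and their partners, relatives of Rac, the factors that load or unload Rac with GTP, Rac effectors, kinases that act on the organisers, enzymes that remove superoxide and peroxide, and the transcription factors Spi1 and Nfe2l2. Of these, 34 had a start site called in all 7 libraries, Cybc1 and Duoxa2 in part of them, and Nox3 and Duox1 in none. None of the 34 passed the adjusted test (limma, smallest adjusted p 1.00), as for 0 of all 13587 start sites, of which 186 had an unadjusted p under 0.05. By sign, 25 were above 0 and 9 below, with a median of 0.04, while 67.3% of all start sites were above 0, with a median of 0.03. Farthest above were Duox2, a dual oxidase, and Arhgap1, a GTPase-activating protein. Duox2 had fold enrichments of 3.86, 3.56, 3.94 and 3.60 in the 4 WTAkita libraries, against 3.44, 3.35 and 3.41 in the 3 Ctrl libraries. Arhgap1 had fold enrichments of 16.04, 13.5, 16.6 and 16.3 in the 4 WTAkita libraries, against 14.6, 15.4 and 14.7 in the 3 Ctrl libraries. The differences were 0.18 (standard error 0.16) and 0.13 (standard error 0.11), and at Duox2 every WTAkita library was above every Ctrl library on this raw scale. Farthest below were Noxo1 and Noxa1, the organiser and activator that serve NOX1. Noxo1 had fold enrichments of 12.4, 14.02, 15.4 and 16.3 in the 4 WTAkita libraries, against 16.3, 16.5 and 16.1 in the 3 Ctrl libraries. Noxa1 had fold enrichments of 13.3, 13.1, 12.7 and 14.04 in the 4 WTAkita libraries, against 13.8, 14.6 and 16.05 in the 3 Ctrl libraries. The differences were -0.10 (standard error 0.09) and -0.08 (standard error 0.12), and both sets overlapped.

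The limit of 30 kb set apart sites of like and of unlike strength. Near Ncf1, the site just inside it, 28886 bp from the gene, had a mean fold enrichment of 18.03 and a difference of 0.04, and the one just outside, at 31352 bp, 10.8 and 0.01. Near Rac2, a site 29580 bp from the gene was called in 5 libraries, and one at 30302 bp in all 7, with mean fold enrichments of 2.32 and 2.13. Near Rac1 the site inside, at 20700 bp, had 16.3 and the one outside, at 32666 bp, 20.7. Near Cyba the site inside, at 27733 bp, had 8.85 in all 7 libraries and the one outside, at 30943 bp, 1.74 in 1 library. Near Nox1 the site inside, at 27170 bp, had 16.4 in all 7 and the one outside, at 37293 bp, 4.28 in 4. Near Ncf4 both sites, at 22433 and 30487 bp, were called in 1 library, with 3.23 and 2.07. Near Cybb the site just outside, at 32349 bp, had 8.90 in all 7 libraries and a difference of -0.05. Near Nox4 the next site beyond the limit was 132300 bp away, with 4.14 in 6 libraries, against 9.55 in all 7 for the outermost one inside.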

How the data were processed

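ATAC-Seq of 4 WTAkita and 3 Ctrl libraries was read from the peak lists that the authors deposited. The submitters' processing notes name Trim Galore 0.4.2, cutadapt 1.9.1, Bowtie2 2.3.4.1 with mm10, and MACS2 2.1.4. Per the study's methods, duplicates were removed and peaks were called in each library at a p of 0.01 with tags extended to 150 bp. The fold enrichment in the deposited lists is a ratio of the pileup at the summit to the local background, each with a pseudocount of 1, within 1 library and with no scaling to the others. The −log10 p-values and q-values that the authors deposited set each summit against its background and grow with depth. The deposited score repeats the p on another scale and was not used.

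Summit lines of 1 interval (same start, same end) made 1 peak with the summit of highest enrichment, and the 19 autosomes and both sex chromosomes were kept. Summits were matched within 150 bp over the whole genome. The log2 fold enrichment of sites called in all 7 libraries was quantile-normalized, and the groups were compared in limma 3.58.1 (trend, R 4.3.3) at a threshold of 0.05 after Benjamini-Hochberg adjustment over all 101453 sites. The study tested read counts under peaks, which were not used here. Pileups were solved from fold enrichment and p and were whole within 0.02 for 99.996% to 99.998% of the peaks of a library. Libraries held 137963 to 151552 peaks in WTAkita and 141709 to 147698 in Ctrl, median summit pileup was 39 to 53 tags, and tags, estimated from the background level, were 40500000 to 53100000 in WTAkita and 37600000 to 51900000 in Ctrl. The mean chi-square between the summit pileups of 2 libraries was at least 1.09, lowest for WTAkita replicate 3 with Ctrl replicate 3. Summit pileups are maxima at called sites, so this value cannot show that libraries are independent. Each library has its own label and was counted once. Python 3.11.15, numpy 2.4.6, pandas 2.3.3 and matplotlib 3.10.9 were used. The limma step was tested on simulated data.

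The 8 genes, the pathway list and the markers were chosen with earlier results of these data known. Named sites are, for each gene, the shared site nearest to its start within 1000 bp, the strongest one beyond, the one with the largest difference, every shared Rac2 site, and the 2 pathway genes farthest above and below 0. Sites outside this rule are said to be so or appear only in counts. RefSeq start windows were matched by symbol for 5 of 8 genes: Cybb, Cyba, Ncf1, Nox1 and Nox4. Alternatives covered the value of a site, normalization, matching, consensus regions, summit lines, peak threshold, missing values, trend, replicate block, a covariate, window sizes and libraries left out. The study's expression and methylation data were not analysed here. Some genes of the marker and pathway lists are counted but not reported here by name.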

Additional observations from a re-analysis of the deposited data

Results flagged for a closer look

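In 45 groups of 4 WTAkita accessibility values, 1 value stood far from the other 3 in 2 cases, where chance gives about 1 in 20. At the Cybb site 16792 bp inside the gene, WTAkita replicate 3 had a normalized log2 fold enrichment of 3.43, against 3.25 to 3.28 in the other WTAkita libraries. At the start of Arhgap1, the raw fold enrichment of WTAkita replicate 2 was 13.5, against 16.04 to 16.6 in the other WTAkita libraries. Start sites of the pathway list were screened on raw fold enrichment, which is not scaled between libraries. The part of library scale in this case was not tested. Among the numbers of peaks near the 8 genes, WTAkita replicate 3 had 5 peaks near Cybb, and each of the other WTAkita libraries had 4. WTAkita replicate 2 had 12 peaks near Cyba, and the others had 10 each. With 3 tied whole numbers any other value stands apart, so the rate of 1 in 20 does not apply to these counts.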

How the results depend on the processing

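No site near the 8 genes and no start site of the pathway list passed the adjusted test under any alternative run, with 61 to 86 member sites tested. A window of 10 kb left 41 shared sites and the wider start site window of 5000 bp gave 36 pathway sites, again with 0 past the test. Over the whole genome, 7 sites passed without WTAkita replicate 4 and 0 without each of the other libraries, 8 passed with the summit pileup and 7 with consensus regions. Of 45 named differences, 27 kept their sign in every alternative that gave a value and 18 turned in at least 1. Of 895 values under alternatives, 50 had the other sign and 17 moved by more than the spread within groups. With 1 library left out, 36 of the 45 turned or moved by over 1.5 times. Sites whose groups do not overlap numbered 5 higher and 3 lower in WTAkita. They were 0 and 2 with the summit pileup, 5 and 0 with median centring, 1 and 1 without normalization, and 16 and 9 without the 3 libraries whose median fold enrichment was lowest. With 1 library left out they ran from 5 to 12 and from 3 to 8, the most without Ctrl replicate 1 (12 higher) and Ctrl replicate 3 (8 lower). Groups of fewer libraries separate more easily, so counts with libraries left out cannot be set against 5 and 3. The share over all sites under these settings is not given here. The labels do not say whether same-numbered libraries of both groups share a batch. Their deviations correlated at 0.21, 0.03 and 0.06, and those of differently numbered pairs at -0.18 to 0.10. Not every library correlated best with its own number, and the part of a shared batch was not tested. With the replicate block, 0 member sites and 0 pathway sites passed, against 6 over the whole genome. Sites rest on 13 to 649 tags, so weak sites such as the one upstream of Nox1, at 14 to 31 tags, carry the largest counting error, and the number of libraries limits the test.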
